A study of Talpa occidentalis and Mus musculus with 35 samples.

Results

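High-scoring multi-exon gene copies are loci of the Iberian mole (Talpa occidentalis) that carry the name of a gene already annotated elsewhere, are split into exons, and score nearly as high as that gene's best locus. They were taken from the gene annotation of the mole assembly talOcc3. A locus entered when its name ended in a copy number, its transcript had 2 or more coding exons, and its model score, whose unit the file does not give, reached at least 80% of the highest score of the same gene symbol. Olfactory receptors, TRIM genes, ZNF genes and names starting with LOC were set aside. Of 23336 gene lines on 2074 scaffolds, 5255 were copies, 2393 of these had 2 or more coding exons, and 611 passed the score. Removing 131 by name left 480 high-scoring copies of 384 symbols, which was 2.48% of the 15515 symbols outside those name groups. The score chose these loci, so their scores are given as a description. So are tandem position, exon numbers and reference intervals beside lower-scoring copies, since a shorter model can score less.

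The study compared gonads of moles, whose females carry ovotestes (an ovarian and a testicular part in a single organ), with gonads of mice. Its 35 libraries fell into 16 groups, 19 libraries from moles and 16 from mice. Wild-type moles gave ovotestis and testis at embryonic day 15 (2 libraries each), and the testicular portion and the ovarian portion of ovotestes plus whole testes, taken 7 days after birth (3 libraries of each) and from adults (2 of each). Mutant mouse ovaries, labelled MutFgf9 with no allele stated, stood against wild-type ovaries labelled WtB6, both at embryonic day 13.5 with 2 libraries each. The strain labels of those 4 libraries each give a different C57BL number. Wild-type CD1 mice gave ovary and testis at embryonic day 13.5, 7 days after birth and 10 weeks (2 each). The file analysed here holds no value for any library, so nothing below is an expression level, the libraries' depth is unknown, and there are no replicates. Intervals in brackets are exact 95% binomial intervals of a share and cover counting error over loci, not animals. They treat copies of the same symbol as independent loci, which can make them too narrow.

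A gene can gain a second locus in more than one way. Unequal crossing-over places a full copy with its introns beside the original, and repeated rounds give clusters such as those of cytochrome P450, natural killer receptor or keratin genes. Reverse transcription of a messenger RNA places an intronless copy, a retrocopy, anywhere in the genome, and highly expressed genes such as those of ribosomal proteins are known for many of them. In an annotation, a long gene whose model breaks in the middle also appears as a pair of loci with the same name, and a stretch assembled more than once appears on a short extra scaffold. The X and Y chromosomes of mammals keep pairs of related genes that descend from a single ancestral gene.

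The 480 copies had a median of 4 coding exons (quartiles 2 and 7, highest 41), against a median of 3 (quartiles 1 and 8, highest 40) at their first loci, the loci of the same symbol without a copy number. Median coding length was 832.5 bases at the copies and 869 bases at the first loci. The score reached a median of 90.8% of the highest (quartiles 85.3% and 95.9%), and 12 copies equalled it. In all 384 symbols the first locus held the highest score given on its own line, but for 8 copies of 5 symbols (BTN1A1, ERVW-1, GZMA, SIGLEC10 and TMPRSS11D) the highest score on the copy's line was another value, and their percent of the highest does not refer to the first locus used here. Copy numbers followed falling score in 178 of the 182 symbols with 2 or more copies. The word "first" thus stands for a rank by score and says nothing of which locus is older. Just inside the threshold lay KRTAP2-1_copy3 at 80.1%, RBP2_copy2 at 80.4% and SRSF7_copy2 at 80.4% of the highest score. Just outside lay AGAP3_copy3, HIF3A_copy2 and PFN1_copy3, each at 79.9%.

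Tandem loci were defined as lying on the scaffold of the first locus with at most 10 other loci between. Of the 480 high-scoring copies, 216 were tandem (45%, interval 40.5 to 49.6%), against 959 of 1559 multi-exon copies under the score threshold (61.5%, interval 59.0 to 63.9%). With 1 high-scoring copy per symbol, 195 of 384 were tandem (50.8%), and the lower-scoring copies were not reduced in this way. The score separates the groups, so the difference in tandem share can follow from the threshold and is given as a description. The other 264 were dispersed, 11 of them farther along the same scaffold and the rest on another scaffold. Among the tandem copies 155 of 216 (71.8%) had no other locus between them and the first locus, 194 (89.8%) lay on its strand, and the median gap was 6.29 kb. Large scaffolds, those annotated up to at least base 1000000, held 405 of the 480 copies (84.4%), 1303 of the 1559 lower-scoring copies (83.6%), and 15214 of the 15512 first loci of all symbols outside the name groups set aside (98.1%).

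**Figure D1:**
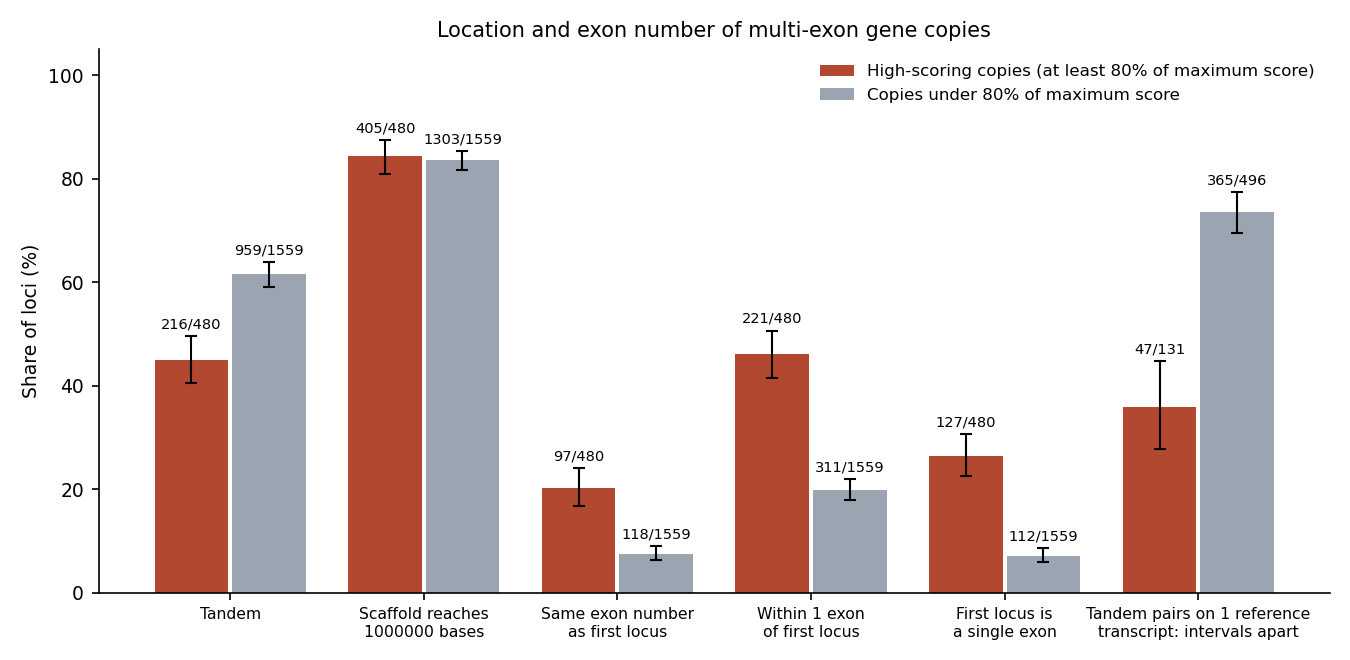
Bars give the share of loci in percent (y axis) for 6 properties (x axis), with high-scoring copies left in red and multi-exon copies under 80% of the highest score right in grey; error bars are exact 95% binomial intervals and the counts stand above. Tandem position was less frequent among high-scoring copies (216 of 480) than among lower-scoring ones (959 of 1559), while the share on large scaffolds was close, and an equal exon number and a single-exon first locus were both more frequent. The score separates the groups, so these differences can follow from the threshold and are given as a description.

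Exon numbers matched the first locus in 97 of 480 high-scoring copies (20.2%, interval 16.7 to 24.1%), against 118 of 1559 lower-scoring copies (7.57%). They came within 1 exon in 221 (46.0%), against 311 lower-scoring copies (19.9%). More exons than the first locus were found in 227 high-scoring copies (47.3%), against 288 lower-scoring copies (18.5%), and fewer in 156 (32.5%), against 1153 lower-scoring copies (74.0%). A first locus made of a single exon stood behind 127 high-scoring copies (26.5%, interval 22.6 to 30.6%), against 112 of the 1559 lower-scoring copies (7.18%) and 1129 of 15512 first loci of all these symbols (7.28%). Of the 127, 116 belonged to dispersed copies, which was 43.9% of the 264.

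**Figure D2:**
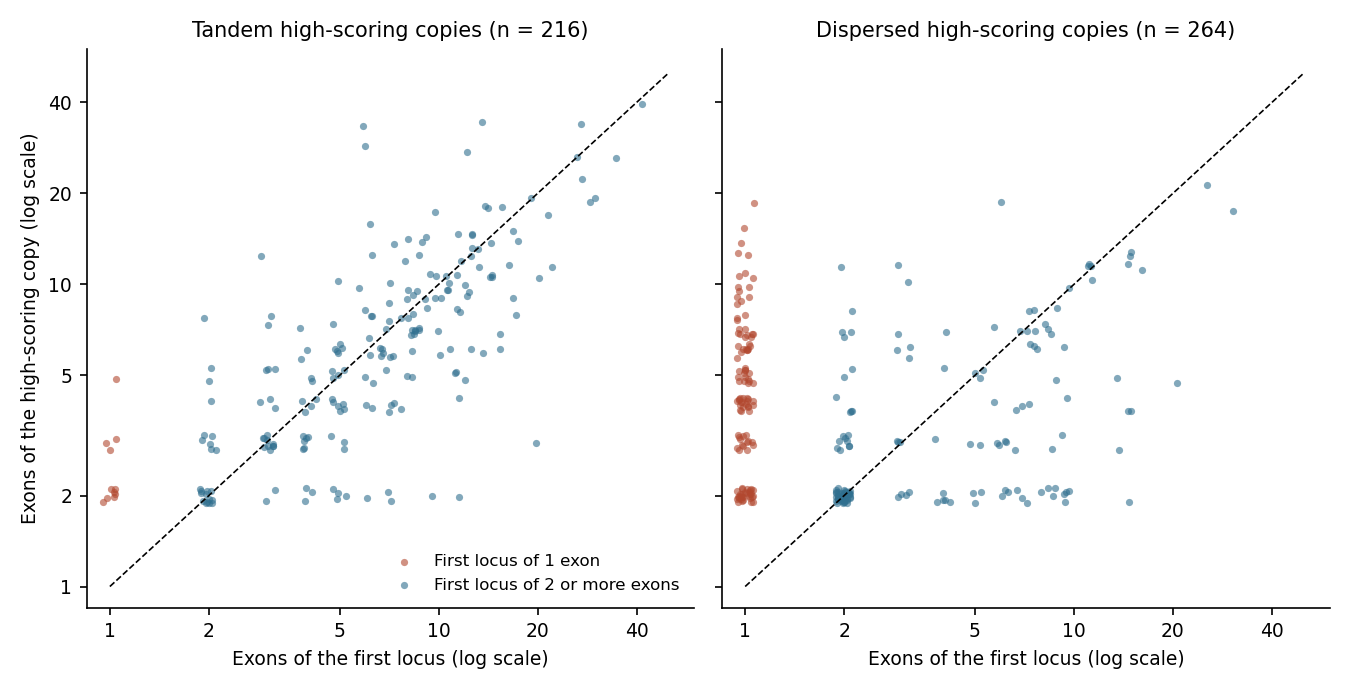
Each point is a high-scoring copy, with its exon number on the y axis and that of its first locus on the x axis (both log scales, points slightly jittered), for tandem copies on the left and dispersed copies on the right; the dashed line marks equal numbers. Tandem copies scatter around the line, whereas 116 dispersed copies stand in a column above a single-exon first locus and others lie at 2 exons to the right of the line.

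Tandem copies that repeat the first locus were those aligned to the same stretch of the same reference transcript. A copy and its first locus had the same reference transcript in 131 tandem pairs, and in 83 of these (63.4%, interval 54.5 to 71.6%) they shared at least 50% of the shorter interval. These 83 had a median of 4 exons, against 4 at their first loci, and 56 (67.5%) came within 1 exon of the first locus. The median gap was 14.8 kb, 38 of 83 had no other locus between, and 62 lay on the same strand. Their exon number was a median of 100% of that of the mouse gene, over the 46 with a mouse gene named once. The quartiles were 100% and 200% and the range 22.2% to 500%, and 26 of the 46 came within 1 exon of the mouse gene.

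Among cytochrome P450 enzymes 4 of 7 copies were tandem with shared intervals, and all 4 came within 1 exon of the first locus. Among other steroid, drug and xenobiotic enzymes 6 of 10 copies were, and 2 of these 6 came within 1 exon. CYP4A11, a cytochrome P450 that hydroxylates fatty acids, had CYP4A11_copy3 at 73984286 to 73993704 and CYP4A11_copy2 at 74007612 to 74019961 of talOcc3 scaffold 2, both on the plus strand with 12 exons, with 96.6% and 99.8% of the highest score. The first locus lay upstream at 73963854 to 73972197, also with 12 exons on the plus strand. All 3 covered reference positions 52 to 1577, and further copies at 46.5% and 51.4% flanked them. GLYAT, a glycine acyltransferase of the liver, had high-scoring copies of 6, 5 and 7 exons at 86.4%, 95.6% and 96.8%, against 8 exons at the first locus on scaffold 18, with GLYAT_copy2, of 7 exons, on the other strand. GSTM1, a glutathione transferase, had a copy of 8 exons at 93.4% of the highest score, 9.46 kb from a first locus of 8 exons on scaffold 21.

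CYP17A1, the enzyme that commits steroids to androgen synthesis, belonged to the same kind. CYP17A1_copy2 lay on scaffold 11 from 45100228 to 45105611 with 8 exons and 1533 coding bases, against 8 exons and 1533 coding bases at the first locus from 45139044 to 45144553, both on the minus strand. Its score was 92.5% of the highest, and both covered reference positions 173 to 1696. A locus of 6 exons at 61.2% of the highest score stood between them and fell under the threshold.

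Among the 20 copies of transporters and channels 12 were tandem, 5 of them with shared intervals, and 3 of these 5 came within 1 exon of the first locus. CLCA4, a regulator of chloride conductance, had a copy and a first locus of 14 exons each, 9.92 kb apart on scaffold 2, at 98.8% of the highest score. P2RX4, an ATP-gated cation channel, had 14 exons at its copy and 12 at its first locus, with a score of 99.4%. SLC17A4, a phosphate and anion transporter, had copies of 11 exons at 98.4% and 95.3%, against 10 exons at the first locus. Immune genes gave 11 shared tandem copies among antigen presentation and receptor genes and 10 among cytokines and innate defence genes. Of these, 7 of the 11 and 3 of the 10 came within 1 exon of the first locus. PRF1, the pore-forming protein of killer lymphocytes, stood in neither list and had copies of 2 exons at 99.7%, 99.0% and 97.7%, against 2 exons at the first locus, each with 1668 coding bases, on scaffold 11. UBD, a ubiquitin-like protein induced by interferon and also outside both lists, had copies of 3, 2 and 2 exons at 96.8%, 85.9% and 85.1%, against 2 exons at the first locus. GBP1, an interferon-induced GTPase of the innate defence list, had 10 exons at both loci and 93.6%.

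Some tandem copies held several times the exons of the gene. KLRD1, a natural killer cell receptor also known as CD94, had copies of 32, 29 and 10 exons, against 6 at its first locus and 7 in the mouse gene. KLRD1_copy2 spanned 550780 to 800263 of scaffold 34 and enclosed the first locus, at 779505 to 784240, on the other strand. CD163L1, a scavenger receptor, had copies of 28 and 13 exons, against 12 at its first locus and 12 in the mouse gene.

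**Figure D3:**
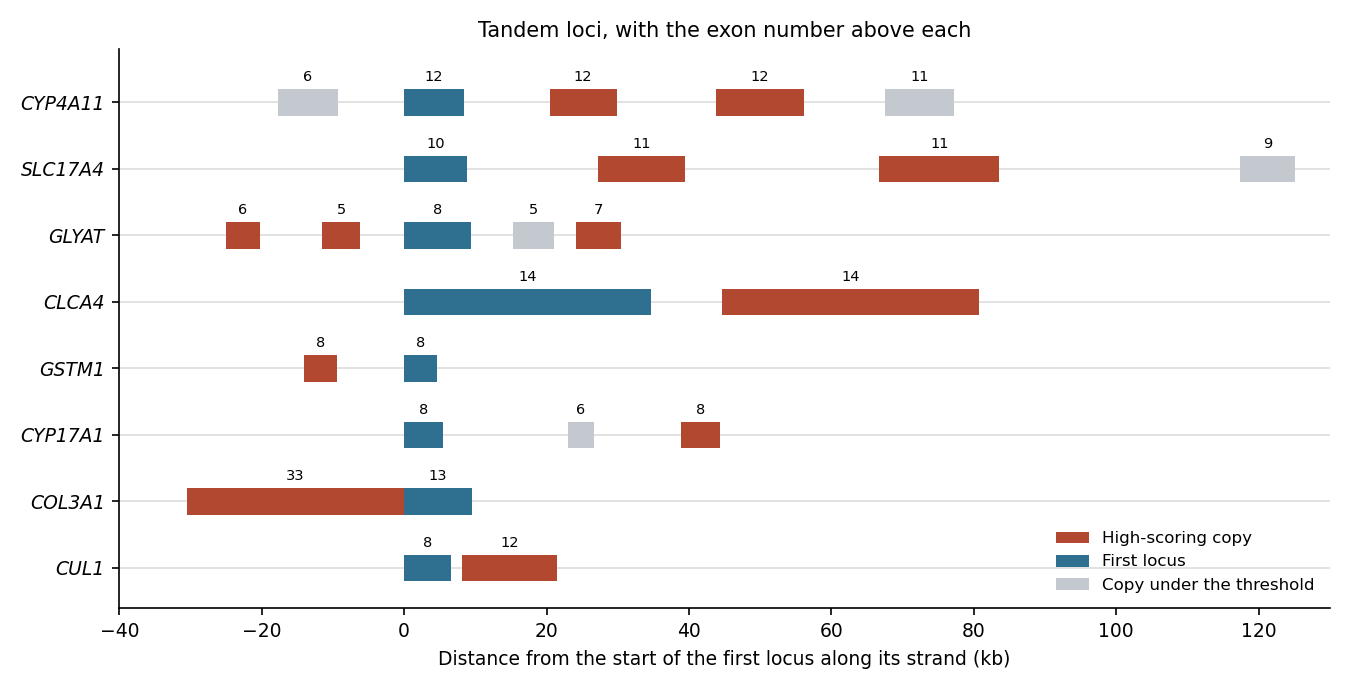
Boxes are loci of 8 symbols (y axis) placed by their distance in kb from the start of the first locus along its strand (x axis), with high-scoring copies in red, first loci in blue, copies under the threshold in grey, and the exon number above each box. High-scoring copies of CYP4A11, CLCA4, GSTM1 and CYP17A1 have the exon number of their first locus and those of SLC17A4 have 1 more, those of GLYAT have 5 to 7 against 8, and the COL3A1 and CUL1 copies lie 41 bases and 1.54 kb from a first locus with 13 and 8 exons.

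Another set of tandem copies held a different stretch of the gene from the first locus. In 47 of the 131 pairs on 1 reference transcript (35.9%, interval 27.7 to 44.7%), the intervals shared under 10% of the shorter one. Among lower-scoring tandem copies this held for 365 of 496 pairs (73.6%, interval 69.5 to 77.4%). Copies with intervals apart had a median of 86.6% of the first locus's coding length, against 43.2% among the lower-scoring ones. A shorter model can score less, so the difference between these shares can follow from the score threshold and is given as a description. All 47 high-scoring copies of this kind lay on the strand of the first locus and in transcript order, so that the upstream locus held the upstream stretch. Among the 365 lower-scoring copies with intervals apart, 364 lay on the strand of the first locus. All 364 were in transcript order, and 308 of the 365 had no other locus between. Transcript order held in 27 of the 62 same-strand high-scoring pairs with shared intervals. Interval starts in those pairs can lie close together or be equal, so their order has little meaning. No other locus lay between in 42 of the 47, the median gap was 1.25 kb, and 22 gaps were under 1 kb. With a mouse gene named once for 45 of them, the copy alone had a median of 40% of the mouse exons, and copy and first locus together a median of 90.2% of the exons and 92.9% of the coding length.

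COL3A1, the main chain of type III collagen, carried the most exons of this set. COL3A1_copy2 had 33 exons over reference positions 121 to 2960, and the first locus had 13 exons over positions 3007 to 4496, 41 bases away on scaffold 23, where the mouse gene has 51. The copy reached 93.9% of the highest score. MED12, a subunit of the Mediator complex, had 18 exons at the copy and 29 at the first locus, with 45 in the mouse and a gap of 83 bases. CACNA1I, a T-type calcium channel, had 14 and 17 exons, with 36 in the mouse. CUL1, the scaffold of SCF ubiquitin ligases, had 12 exons at the copy over positions 1494 to 2893 and 8 at the first locus over positions 491 to 1426, with 21 in the mouse. TEX11, a meiosis gene of the testis, had 13 exons at both loci and 29 in the mouse, with a gap of 54.5 kb.

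Another 85 tandem copies were placed on a different reference transcript from their first locus, so that positions could not be compared directly, and the positions, taken as they stand, overlapped by under 10% in 52. PRKDC, the catalytic subunit of the DNA-dependent protein kinase, had 41 exons at the copy and 40 at the first locus, with 86 in the mouse. KMT2C, a histone H3 lysine methyltransferase, had 35 and 27 exons, with 59 in the mouse. KMT2D, of the same enzyme family, had 22 and 26 exons, with 54 in the mouse and a gap of 9 bases. NBEAL2, a protein of platelet granules, had 25 exons at each locus, with 54 in the mouse. DMD, the dystrophin gene, had 26 exons at the copy and 36 at the first locus, with 79 in the mouse.

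**Figure D4:**
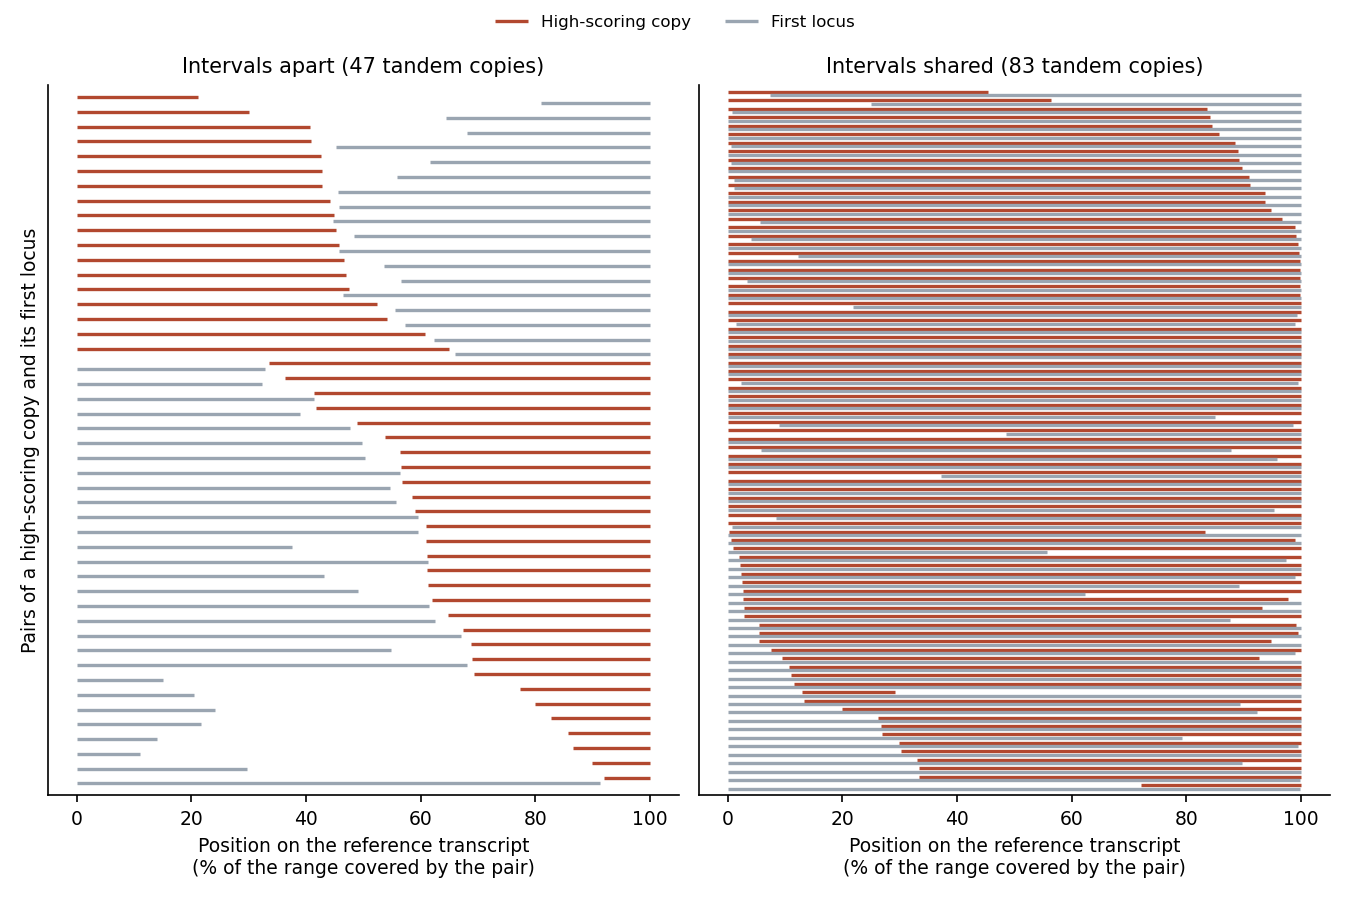
Each pair of lines is a tandem copy (red) and its first locus (grey) on their common reference transcript, with position on the x axis as a percent of the range covered by the pair, for the 47 pairs with intervals apart on the left and the 83 pairs with shared intervals on the right. On the left the lines meet or leave a gap without overlapping beyond a small share. On the right the copy covers a median of 97.2% of the first locus's interval (lowest 16.2%).

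The later mole assembly MPIMG_talOcc4v2.1 and the mouse genome were then used to count the protein-coding loci where talOcc3 had 2. Pairs counted where the copy and its first locus were the only loci between flanking genes named once in both annotations and present on the same sequence there. In the later mole assembly 60 pairs could be counted, and 35 of them (58.3%, interval 44.9 to 70.9%) had 1 locus between those flanks, 17 had 2, 7 had 3 or more and 1 had 0. For pairs with intervals apart, 14 of 21 had 1 locus there and 5 had 2. For pairs with shared intervals, 0 of 6 had 1 locus, 3 had 2, 2 had 3 or more and 1 had 0, and the exact interval of 0 of 6 reaches 45.9%. In the mouse 15 of 22 pairs with intervals apart and 0 of 7 with shared intervals had 1 locus. COL3A1 and MED12 each had 1 locus between their flanks in the later assembly, while CUL1 had 3.

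Dispersed copies with a single-exon first locus numbered 116. They had a median of 4 exons (quartiles 2 and 6, highest 19), and their median coding length was 567 bases, against 501 bases in the single exon of the first locus. The mouse gene had 2 or more coding exons in 102 of 102 cases where it was named once, and 66 of these copies (64.7%) came within 1 exon of it. The exon number equalled that of the mouse gene in 31 of the 102 (30.4%). In 92 pairs on a common reference transcript, the copy covered a median of 92.1% of the first locus's interval. GK, glycerol kinase, had 19 exons at GK_copy2 on scaffold 24 from 16716176 to 16776312 and 1 exon at its first locus on scaffold 5, with 21 in the mouse and a score of 96.2%. PSMC6, an ATPase subunit of the proteasome, had 15 exons at the copy and 1 at the first locus, with 14 in the mouse. NPM1, a nucleolar chaperone, had 11 exons at NPM1_copy3 and 1 at the first locus, with 11 in the mouse, and its other high-scoring copy had 2. KLF4, a transcription factor, and ACTB, cytoplasmic actin, each had 5 exons at the copy and 1 at the first locus, with 5 in the mouse.

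Neighbouring genes placed these pairs. A locus was called at its symbol's position when at least 2 of its nearest neighbours named once, up to 3 on each side within 20 loci, lay within 10 protein-coding genes of the symbol in the other annotation. Genes named once passed in 99.3% of 12143 cases for the later mole assembly and in 98.4% of 12361 cases for the mouse. Among dispersed copies with a single-exon first locus, 74 pairs could be placed in the later assembly. In 60 of them (81.1%, interval 70.3 to 89.3%) the copy alone lay at the position, in 1 the first locus alone did, in 0 both did and in 13 neither did. Against the mouse the copy alone lay at the position in 63 of 84 pairs (75%, interval 64.4 to 83.8%), the first locus alone in 1, both in 0 and neither in 20. In the 68 pairs placed in both annotations, the copy alone held the position in both for 54. GK, PSMC6, NPM1 (at NPM1_copy3), KLF4 and ACTB were all among these 54, and RNF146 gave the pair in which the first locus alone held the position.

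**Figure D5:**
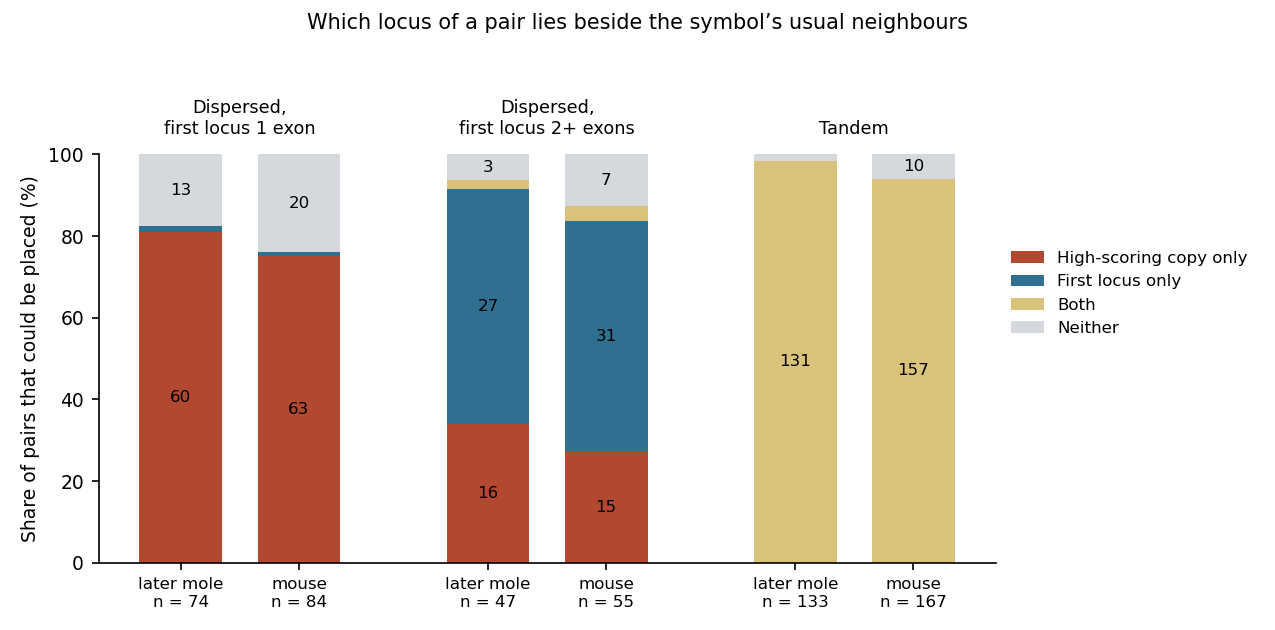
Stacked bars give the share of pairs in percent (y axis) in which the high-scoring copy alone, the first locus alone, both or neither lay beside the symbol's neighbours of the later mole assembly or the mouse (x axis), for 3 kinds of pair, with counts inside the bars. The copy alone held the position in 60 of 74 and 63 of 84 dispersed pairs with a single-exon first locus. Among dispersed pairs with a multi-exon first locus, the first locus alone held it in 27 of 47 and 31 of 55. Both loci held it in 131 of 133 and 157 of 167 tandem pairs. Tandem loci lie close together by definition and can share the neighbours used. The tandem bars therefore cannot tell the copy's position from that of the first locus.

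Dispersed copies whose first locus had 2 or more exons numbered 148, and most could not be placed. Among the placed pairs the opposite order was the more frequent one. The first locus alone lay at the position in 27 of 47 pairs placed in the later assembly (57.4%, interval 42.2 to 71.7%). In the mouse the first locus alone did so in 31 of 55 placed pairs (56.4%, interval 42.3 to 69.7%). The copy alone did so in 16 and 15. No pair had the copy alone in one annotation and the first locus alone in the other. Over the 32 such pairs with the first locus alone at the position in either annotation, the copies had a median of 2 exons, against 7 at the first loci, and 21 copies had 2 exons. Their genomic span was a median of 4.43 times the coding length, against 12.1 times at the first loci. ACSL4, an acyl-CoA synthetase, had 2 exons at the copy on scaffold 13 and 15 at the first locus on scaffold 32. HNRNPA1, an RNA-binding protein of splicing, had 2 exons at the copy and 9 at the first locus, with a score of 97.7%. PRC1, which bundles microtubules in dividing cells, was unlike these, with 13 exons at the copy on scaffold 22 and 15 at the first locus on scaffold 33.

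The 20 copies that alone held the position in either annotation, with a multi-exon first locus elsewhere, had a median of 4.5 exons, against 2 at their first loci. EEF1A1, the translation elongation factor, had 7 exons at the copy and 2 at the first locus, with 7 in the mouse and a score of 99.8%. HNRNPA3, another RNA-binding protein, had 10 exons at the copy and 3 at the first locus, with 10 in the mouse. GPI, the glycolytic glucose-6-phosphate isomerase, had 19 exons at GPI_copy2 on scaffold 36 and 6 at the first locus on scaffold 4.

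Ribosomal proteins were the family with most symbols among the high-scoring copies. Of 161 ribosomal protein symbols, 24 (14.9%, interval 9.79 to 21.4%) had 32 high-scoring copies, against 2.48% of all symbols of these names. All but 1 of the 32 were dispersed, and 23 had a single-exon first locus. RPL3 had 9 exons at the copy and 1 at the first locus, with 10 in the mouse. RPS2 had 8 and 1 exons, with 5 in the mouse, and RPSA had 7 (at RPSA_copy2) and 1. Of the 14 ribosomal pairs with a single-exon first locus that could be placed, the copy alone held the position in 8 in the later assembly and in 9 in the mouse. MRPS36, a protein of mitochondria, gave the exception with a tandem copy of 4 exons at 100% of the highest score.

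Antigen presentation and immune receptor genes followed with 36 copies of 20 of the 100 symbols in that list (interval of the share 12.7 to 29.2%). Of these copies 16 were tandem and 20 dispersed. HLA-DQA1, named for a class II chain, had copies of 5, 5 and 4 exons at 84.1%, 97.5% and 97.9%, against 4 at the first locus on the same strand of scaffold 20. Transporters and channels had 20 copies of 19 symbols (2.02% of 939), central metabolism 16 copies of 11 symbols (5.98% of 184), and ubiquitin and protein turnover 12 copies of 11 symbols (3.13% of 352). Cytokines and innate defence had 11 copies of 10 symbols (4.12% of 243), all 11 tandem. Keratins and skin proteins had 10 copies of 9 symbols (9.47% of 95), 9 of them tandem with shared intervals. Cytochrome P450 enzymes had 7 copies of 6 symbols (14.3% of 42), with a median of 11 exons. No listed family took in 222 copies of 195 symbols (1.83% of 10678).

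The gonad lists held 4 symbols with a high-scoring copy, and over all symbols the share was 2.48%. The ovary and granulosa list (22 genes, 20 with a locus) and the testis and Sertoli list (25 genes, 21 with a locus) had 0 high-scoring copies. The Leydig and steroidogenesis list had 2 of 26, CYP17A1 and CYB5A, and the germ cell and meiosis list had 2 of 35, PRDM9 and NANOG. PRDM9, which sets the sites of meiotic recombination in mice and humans, had 10 exons at PRDM9_copy2 on scaffold 93 from 73243 to 86311, a scaffold annotated up to 182606, against 10 exons at the first locus on scaffold 35. The copy had 2028 coding bases and the first locus 2721, and the score was 91.6% of the highest, with the copy on reference positions 257 to 2864 and the first locus on 257 to 2887. CYB5A, the cytochrome b5 that aids the lyase step of CYP17A1, had 2 exons at the copy and a single exon at the first locus. NANOG, a pluripotency factor, had 3 exons at a copy alone on a scaffold annotated up to 4983.

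Short scaffolds held 75 of the high-scoring copies, 25 on scaffolds ending before 10000 bases, 33 from there to 100000 and 17 from there to 1000000. Of the 75, 42 were the only locus on their scaffold. An exon number equal to the first locus was found in 33 of these 75 (44.0%, interval 32.5 to 55.9%), against 64 of the 405 copies on scaffolds reaching 1000000 (15.8%, interval 12.4 to 19.7%). A pair of symbols with many loci weighed on that share. BMS1P20, a human pseudogene name, gave 19 high-scoring copies, 13 of them on short scaffolds, and RNA45S5, the ribosomal RNA precursor, gave 10 on 10 scaffolds, 9 of them short. Without both symbols, left out after their values were seen, the exon number was equal in 14 of 53 copies on short scaffolds (26.4%, interval 15.3 to 40.3%), against 58 of 398 on scaffolds reaching 1000000 (14.6%), and the intervals overlap. CYP4V2, a fatty acid hydroxylase, had 11 exons at a copy alone on a scaffold ending at 22978, against 11 at the first locus on scaffold 13. MROH2A had 11 exons at both loci and ARHGAP27, a GTPase-activating protein, had 11 at both. Sequence identity between these loci was not analysed here.

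A pair of short scaffolds shared gene names with scaffold 24, and these loci were chosen after their values were seen. Scaffold 24 had 134 genes named once with a mouse gene named once, and 129 of these mouse genes (96.3%) lie on the mouse X chromosome. Scaffold 80, annotated up to 192474, held only EIF2S3_copy2, AMELX_copy2 and ZFX_copy2, and the first loci of all 3 symbols lie on scaffold 24. EIF2S3, a subunit of translation initiation factor eIF2, had 12 exons at the copy from 123044 to 164663, against 14 at the first locus from 21757055 to 21777063, with 89.8% of the highest score. AMELX, the enamel protein amelogenin, had 3 exons at both loci and 83.6%, with the loci placed on different reference transcripts. ZFX_copy2, a zinc finger gene at 61.5%, fell under the threshold. In the mouse annotation Eif2s3x, Zfx and Amelx are on X, and Eif2s3y, Zfy1 and Zfy2 are on Y.

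Scaffold 83, annotated up to 141938, held only SRY, the testis-determining gene of the Y chromosome in mice and humans, and the first locus of UBA1, a ubiquitin-activating enzyme. SRY was a single exon from 69898 to 70479. The UBA1 first locus had 26 exons from 124966 to 141938, while UBA1_copy2 had 22 exons on scaffold 24 from 3614359 to 3628204, with 98.8% of the highest score. Both covered nearly the same interval, the copy on reference positions 151 to 3328 and the first locus on 152 to 3328. UBA1_copy2 lay at the position of UBA1 in the later mole assembly and in the mouse, and the first locus could not be placed, since its scaffold held too few neighbours. In the mouse Uba1 is on X and Uba1y on Y. SHROOM2, a regulator of cell shape, added copies of 4 exons at 91.7% and 88.4% on scaffolds ending at 37199 and 13771, against 14 exons at a first locus on scaffold 24.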

How the data were processed

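The only data file was the gene annotation of talOcc3. The score in its transcript lines, and the highest score of the symbol, were deposited by the authors; its unit is not stated in any source read for this work. Start and end are 1-based scaffold positions, as deposited. STAR 2.6.1d and mm9 are named in the submitters' processing notes without a role. Expression in the libraries was not analysed here.

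Gene, transcript and coding lines were joined in Python 3.11.15 with pandas 2.3.3, numpy 2.4.6 and scipy 1.17.1, by identifier and position, since 70 identifiers stood on 2 gene lines. The models held no untranslated parts. The first locus was the line of the symbol without copy number. Reference intervals were compared where both loci named the same transcript (338 of 480), as apart (under 10% of the shorter) or shared (at least 50%). Other annotations were the protein-coding genes of the later assembly (21597) and of GENCODE M21, GRCm38 (21951), used for names, order and exon number; 267 and 312 of the 384 symbols were found there. Sequence boundaries of the later assembly were inferred from falling starts (378 sequences). No coordinate was converted.

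The high-scoring copies (the members) and the family and gonad lists were chosen with earlier results of these data known, and the position match and the split by reference intervals were added after seeing the data. Named genes were the 10 symbols with most members, the 10 members with most exons, members on the gonad lists, the 3 on each side of the threshold, the 4 with most exons in each of 6 families, the 5 with most excess or deficit of exons, the 5 dispersed members with most exons on large scaffolds and the 5 farthest and closest pairs; the other genes named were chosen after their values were seen. The symbols are those of the file, mostly human names, and orthology was not tested. Steps were tested on simulated data. Alternatives varied the score threshold, exon and coding length minimum, scaffold size, first locus, model source, members per symbol, tandem distance, flanks and neighbours.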

Additional observations from a re-analysis of the deposited data

How the results depend on the processing

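Of 76 alternative values, 51 stayed within the 95% interval of the share or median as reported, or within 1.5 times for the number of copies. The remaining 25 moved beyond it. A change of direction was not assessed, and none of the values has a test. With 90% of the highest score there were 262 copies, 88.9% of them on large scaffolds. With 3 or more exons the tandem share was 52.3%, the large-scaffold share 87.6% and the share with equal exon number 12.6%. With 5 or more exons there were 230 copies and these shares were 57.4%, 89.6% and 11.7%. On large scaffolds only, the tandem share was 52.1% and the equal-exon share 15.8%. Among models labelled EVM there were 319 copies, a tandem share of 55.5% and an equal-exon share of 16.3%. With 1 copy per symbol the tandem share was 50.8%, the large-scaffold share 90.4% and the equal-exon share 15.6%. The tandem share was 32.3% with 0 other loci between and 52.5% near any locus of the symbol. Large scaffolds held 87.9% with a limit of 100000 bases and 79.8% with 10000000. Within 1 exon the share was 46.0%. The median cover of the first locus's interval was 91.4% over all pairs on 1 transcript and 84.4% in tandem. Pairs with intervals apart made up 45.8% when any transcript of the symbol was allowed. Without BMS1P20 and RNA45S5 the equal-exon share on short scaffolds was 26.4%. The copy alone held the position in 77.8 to 86.2% of pairs in the later assembly and in 72.5 to 83.3% in the mouse. Taking as first locus the line that holds the copy's own highest score, where there was one, left the tandem, equal-exon, same-strand and apart shares at the same values. The cause was not tested, except that fewer copies or a wider limit change counts by construction.

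No paired analysis was possible because no value per library enters any result. The score's unit is unknown and identity between copies was not analysed here. The shares for intervals apart, for the position, for short scaffolds and for the line of the first locus, with their alternatives, were chosen after seeing the data.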

Other observations

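Loci with 2 exons included a few whose exons nearly touch. In 12 of the 480 high-scoring copies (2.50%) a gap between exons was under 50 bases, against 53 of 1559 lower-scoring copies (3.40%), and in 6 copies every gap was, against 27. A high-scoring copy overlapped its first locus on the opposite strand in 3 cases, H2BFWT_copy2, KLRD1_copy2 and LCE3C_copy2.

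Other genes of scaffold 24 had copies under the score threshold on short scaffolds. KDM6A_copy2, named for an X-linked histone demethylase with the partner Uty on the mouse Y, had 7 exons at 11.2% of the highest score on a scaffold annotated up to 453492, and TXLNG_copy2 had 6 exons at 66.6% on a scaffold annotated up to 286801. These values were looked up after the loci of scaffolds 80 and 83 had been seen.

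In a few pairs the first locus, not the copy, lay on the short scaffold. TAP1, a peptide transporter of antigen presentation, had 13 exons at TAP1_copy2 on scaffold 20 and 14 at a first locus on a scaffold annotated up to 360757. GTSF1, a factor of the piRNA pathway in germ cells, had 7 exons at GTSF1_copy2 on scaffold 34 and 9 at a first locus on a scaffold annotated up to 390780. Both copies lay at the position of the symbol in the later mole assembly and in the mouse, as did UBA1_copy2.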
